A study of Mus musculus with 2 samples.

Results

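The 8 genes described here are those of MHC class II antigen presentation and their transcriptional switch: H2-Ab1, H2-Aa, H2-Eb1, Cd74, H2-DMa, H2-DMb1, H2-DMb2 and Ciita. They were taken by symbol from the 31053 genes of the single-cell RNA sequencing tables, and all 8 were found. Bone marrow cells of mice with the genotype C57BL/6;Balb/c, sorted as 7-AAD−CD11b+Ly6C+Ly6G− cells, were compared between radiation controls (RC), given 300 rads, and mice with severe aplastic anemia (SAA), given 300 rads and 65000000 B6 splenocytes. Both groups were therefore irradiated, and the SAA mice differed by the donor cells. Each condition is a single library from 3 pooled mice, so that no test between conditions was possible and the values below describe these 2 libraries. Donor and host cells cannot be told apart in these counts. The age of the mice and the day on which these cells were taken are not given in the sources used here.

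Class II molecules are heterodimers of an alpha and a beta chain that display peptides to CD4+ T cells, and they are typical of dendritic cells, B cells and activated macrophages. The invariant chain, encoded by Cd74, fills the peptide groove during transport and is then degraded, after which the DM heterodimer exchanges its remnant for an antigenic peptide. Ciita encodes the class II transactivator, which binds no DNA itself and acts through factors bound to the promoters of these genes. Interferon-gamma induces Ciita in monocytes and macrophages.

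On GRCm38, all 8 are protein-coding genes. The DM genes lie together on chromosome 17, with H2-DMa at chr17:34119541-34139101, H2-DMb2 at chr17:34143307-34151555 and H2-DMb1 at chr17:34153072-34160230, all on the plus strand. The surface chains follow on the same chromosome, with H2-Ab1 at chr17:34257689-34269419 (plus strand), H2-Aa at chr17:34282744-34287823 (minus strand) and H2-Eb1 at chr17:34305867-34316674 (plus strand). Ciita and Cd74 lie elsewhere, as given with their values. The factors on which the class II transactivator depends bind an X box and, downstream of it, a Y box. These promoter stretches are shown because each carries Y box letters (ATTGG), and those of H2-DMb2 and H2-Eb1 also X box letters (AACNGATG). They are from the RefSeq promoter table of GRCm38.p6, 5′ to 3′ on the strand of the gene, with both sets of letters in capitals:
H2-DMb2, chr17:34145118-34145173 (plus strand): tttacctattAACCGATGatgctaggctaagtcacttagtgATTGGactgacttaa
H2-Eb1, chr17:34305768-34305822 (plus strand): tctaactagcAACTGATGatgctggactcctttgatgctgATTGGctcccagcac
H2-Aa, chr17:34287857-34287916 (minus strand): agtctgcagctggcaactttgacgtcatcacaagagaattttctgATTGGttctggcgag

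Promoter entries of 300 bases, from 250 before to 50 after the start, were matched for 5 of these genes, H2-DMa, H2-DMb1, H2-DMb2, H2-Aa and H2-Eb1, and 3 of the 5, H2-DMb1, H2-DMb2 and H2-Eb1, held both sets of letters in order. In H2-DMb2 and H2-DMb1 23 bases lay between them and in H2-Eb1 22. The letters, chosen after these promoters had been seen and searched on both strands, do not overlap each other. AACNGATG occurred in 755 of 32544 promoters (2.32%) and ATTGG in 12158 (37.4%). Both in order within 30 bases occurred in 11 (0.0338%). The H2-Aa window holds ATTGG without AACNGATG, as does 1 of the 2 listed starts of H2-DMa. An X box with other letters was not searched for. The H2-DMb2 window lies in an intron of a longer annotated transcript of the same gene, and the H2-Eb1 window in an intron of the antisense gene Gm20513.

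The libraries held 798 barcodes (RC) and 825 (SAA), of which 662 and 729 had at least 1000 genes and were retained. The unit is the unique molecular identifier (UMI), each standing for 1 captured transcript tagged at its 5′ end, and they do not scale with the length of a gene. A retained barcode was called monocyte-like if its UMIs of Csf1r, Ccr2, F13a1, Ms4a6c and Ly86 exceeded those of Camp, Ngp, Fcnb, Cebpe, Elane, Mpo, Prtn3 and Ctsg, and granulocyte-like if the reverse held. This gave 342 monocyte-like cells of RC (1358365 UMIs, median 3347.5 per cell) and 285 of SAA (2028301 UMIs, median 6082). It gave 318 granulocyte-like cells of RC (2479896 UMIs, median 6787.5) and 421 of SAA (3315632 UMIs, median 6849). In 2 cells of RC and 23 of SAA neither sum was larger, and 22 of the 23 carried T cell RNA, that is 3 or more UMIs over 8 T cell genes. Of the markers outside the rule, Lyz2, a monocyte gene, was at 15703 CPM (UMIs per 1000000 UMIs of the class) in RC and 8847 CPM in SAA among monocyte-like cells, and Ltf, a granulocyte gene, had 3 and 7 UMIs there, against 9509 and 18386 among granulocyte-like cells. Lcn2, another granulocyte gene, was at 41.2 and 157 CPM among monocyte-like cells. Lyz2 was not restricted to the monocyte-like class. Granulocyte-like cells with a Lyz2 UMI numbered 312 of 318 (RC, 5939.8 CPM) and 410 of 421 (SAA, 6398.5 CPM). The libraries shared 1 barcode, which was not retained in both.

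In monocyte-like cells every one of the 8 genes was higher in SAA than in RC, by 2.21-fold (H2-DMa) to 11.9-fold (H2-Eb1) at the filter of 1000 genes. Of all 8662 genes with at least 20 UMIs in the 2 libraries together, 676 (7.8%) had a ratio of at least 2 and 751 (8.67%) a ratio of at most 0.5. The median log2 ratio was 2.90 over the 8 genes and -0.06 over all genes. Ratios of CPM are given with exact conditional binomial 95% intervals, CPM with exact Poisson and shares of cells with exact Clopper-Pearson 95% intervals, none of which covers more than counting error, so that differences between mice are not in them.

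Cd74, the invariant chain (chr18:60803848-60812652, plus strand), had the most UMIs of the 8 genes in both libraries, 631 in 47 cells of RC and 6939 in 268 cells of SAA. From RC to SAA its level went from 464.5 CPM (429–502) to 3421 CPM (3341–3503), with a ratio of 7.36 (6.79–8.003). In SAA it was thus spread over nearly the whole class, whereas in RC most monocyte-like cells held none.

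Among the surface chains, H2-Aa, the alpha chain of the A molecule, had 280 UMIs in 21 cells of RC and 2977 in 253 cells of SAA (206 and 1468 CPM, ratio 7.12, 6.30–8.08). H2-Ab1, its beta chain, had 202 UMIs in 23 cells of RC and 2297 in 247 cells of SAA (149 and 1132 CPM, ratio 7.62, 6.59–8.84). The intervals of these partner chains overlapped. H2-Eb1, the beta chain of the E molecule, had 94 UMIs in 18 cells of RC and 1670 in 221 cells of SAA, from 69.2 to 823 CPM. The interval of its ratio of 11.9 (9.66–14.8) lay above those of H2-Aa and H2-Ab1, but 1 RC cell held 40 of the 94 UMIs. With at least 1500 genes required, H2-Eb1 had a ratio of 11.0 (8.58–14.4), H2-Aa one of 10.5 (8.74–12.75) and H2-Ab1 one of 12.2 (9.77–15.5), with overlapping intervals. The sum of the 3 surface chains went from 576 UMIs in 26 cells of RC to 6944 in 262 cells of SAA, a ratio of 8.07 (7.41–8.81).

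The DM genes were divided. H2-DMa, the alpha chain of DM, was the member found in most monocyte-like cells of RC, with 239 UMIs in 151 cells, against 787 UMIs in 236 cells of SAA. Its ratio of 2.21 (1.91–2.56), from 176 to 388 CPM, was below those of Cd74 and of each surface chain. H2-DMb1, a DM beta chain, had 28 UMIs in 25 cells of RC and 380 in 202 cells of SAA, from 20.6 to 187 CPM, a ratio of 9.09 (6.19–13.9). H2-DMb2, the other beta chain, had 20 UMIs in 19 cells of RC and 68 in 51 cells of SAA, from 14.7 to 33.5 CPM, a ratio of 2.28 (1.37–3.96). The values of the beta chains are uncertain against each other, since their transcripts were identical at 94.6% of 1219 aligned bases, with a longest identical run of 221 bases, and reads may be split between them.

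Ciita (chr16:10480059-10528418, plus strand) was sparse. It had 14 UMIs in 11 cells of RC and 174 in 111 cells of SAA, from 10.3 CPM (5.63–17.3) to 85.8 CPM (73.5–99.5), a ratio of 8.32 (4.83–15.5). Its interval overlapped those of Cd74, the surface chains and H2-DMb1, and lay above those of H2-DMa and H2-DMb2. In SAA the order of levels was Cd74, H2-Aa, H2-Ab1, H2-Eb1, H2-DMa, H2-DMb1, Ciita and H2-DMb2, with no overlap between neighbours. In RC H2-DMa came after H2-Aa, its interval overlapping those of H2-Aa and H2-Ab1, and the intervals of H2-DMb1, H2-DMb2 and Ciita overlapped.

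**Figure D1:**
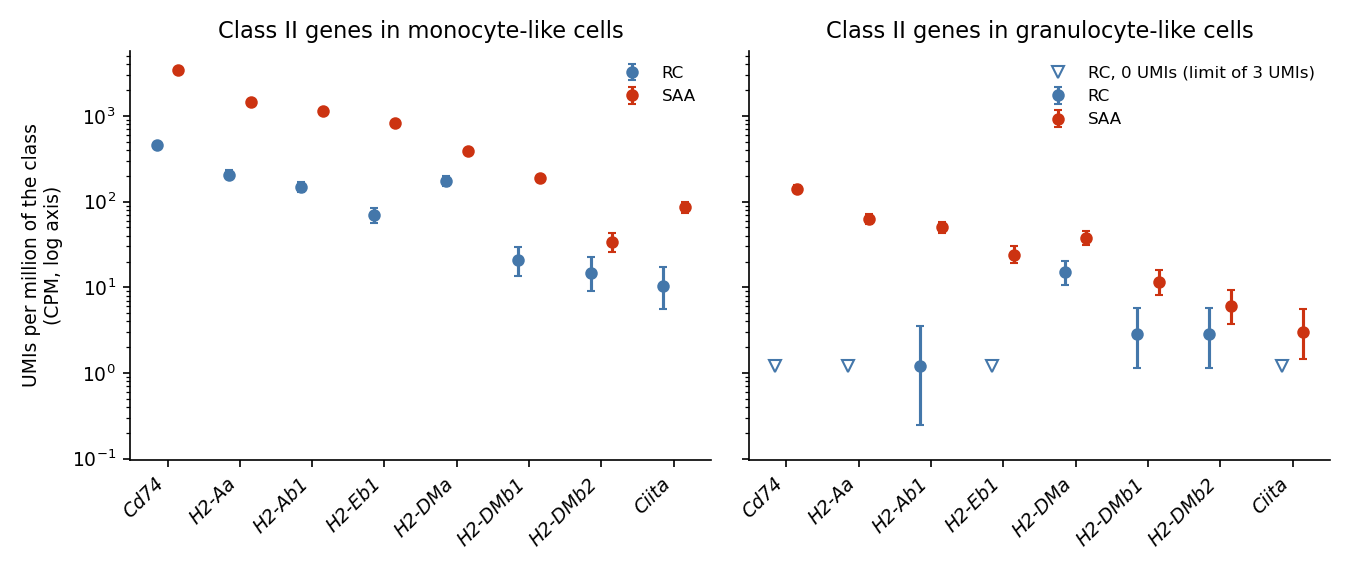
Level of each of the 8 genes (CPM, log axis) in monocyte-like cells (left) and granulocyte-like cells (right) of RC (blue) and SAA (red), with exact Poisson 95% intervals that cover counting error only; triangles stand at the limit of 3 UMIs for genes with 0 UMIs. In monocyte-like cells all 8 SAA points lie above the RC points, with the smallest ratios at H2-DMa (2.21) and H2-DMb2 (2.28).

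In granulocyte-like cells of RC these genes were close to absent. Cd74, H2-Aa, H2-Eb1 and Ciita had 0 UMIs among 318 cells, which allows a share of up to 1.15% of cells with a UMI. H2-Ab1 had 3 UMIs in 3 cells. In SAA, Cd74 had 471 UMIs in 42 of 421 cells, H2-Aa 209 in 32, H2-Ab1 166 in 32 and H2-Eb1 80 in 21. Set against a floor of 3 UMIs in the RC library, Cd74 was at least 117-fold, H2-Aa at least 52.1-fold and H2-Eb1 at least 19.9-fold higher in SAA. H2-Ab1 had a ratio of 41.4 (13.9–203). Ciita had 10 UMIs in 10 cells of SAA, at least 2.49-fold the floor.

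H2-DMa was the one of these genes with more than 10 UMIs in granulocyte-like cells of RC. It had 37 UMIs in 25 cells of RC and 125 in 59 cells of SAA, a ratio of 2.53 (1.74–3.75). H2-DMb1 went from 7 to 38 UMIs (4.06, 1.79–10.8) and H2-DMb2 from 7 to 20 (2.14, 0.868–5.98), so that the interval of H2-DMb2 included 1. With at least 20 UMIs, 7 of the 8 genes could be counted and all 7 had a ratio of at least 2, against 584 of 8812 genes (6.63%) with such a ratio and 451 (5.12%) with one of at most 0.5.

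Few granulocyte-like cells carried this signal. The 10 cells of SAA with most surface UMIs held 297 of 455 (65.3%). The 23 of 421 cells whose monocyte and granulocyte sums lay close together (the larger under 4 times the other, or under 5 UMIs) held 243 of the 455 surface UMIs, 273 of 471 Cd74 UMIs and 7 of 10 Ciita UMIs. Without such cells in either library the Cd74 ratio was at least 52.0, and without the 12 SAA barcodes that Scrublet called doublets, all of them granulocyte-like, it was at least 83.8. With barcodes of under 1000 genes included it was 29.6 (16.8–57.7). Some monocyte genes were also higher in granulocyte-like cells of SAA than of RC, namely Ccr2 (25 and 127 UMIs in RC and SAA, 10.1 and 38.3 CPM), Ms4a6c (41 and 188 UMIs, ratio 3.43, 2.44–4.93) and Ly86 (16 and 77 UMIs, ratio 3.60, 2.08–6.61), while F13a1 (76 and 89) had a ratio of 0.876 (0.638–1.21). The 29 thinned SAA cells with a surface UMI had a median of 12 UMIs over the 5 monocyte genes of the rule, and the 384 without a median of 0. The part of mixed barcodes in the class II signal was not tested.

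Within a library, levels differed between the classes more for the surface chains and Cd74 than for H2-DMa. In SAA the monocyte-like level exceeded the granulocyte-like one 24.1-fold for Cd74 (21.9–26.5), 24.9-fold for the surface sum (22.7–27.5) and 28.4-fold for Ciita (15.1–60.4). H2-DMa stood at 10.3-fold (8.51–12.5) and H2-DMb2 at 5.56-fold (3.33–9.66). In RC the ratio was at least 384-fold for Cd74 and 123-fold for H2-Ab1 (41.5–601), and 11.8-fold for H2-DMa (8.32–17.2).

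Because monocyte-like cells of SAA were deeper, shares of cells were also taken after thinning each cell to 2600 UMIs, which left 266 monocyte-like cells of RC and 267 of SAA and dropped 76 and 18 shallower cells. A surface UMI was then found in 15 cells of RC (5.64%, 3.19–9.13) and 237 of SAA (88.8%, 84.3–92.3), against 26 of 342 (7.60%) and 262 of 285 (91.9%) without thinning. Cd74 was found in 27 cells of RC (10.2%, 6.80–14.4) and 248 of SAA (92.9%, 89.1–95.7). For H2-DMa the shares were 33.5% (27.8–39.5) and 64.0% (58.0–69.8), and for Ciita 2.26% (0.832–4.84) and 17.6% (13.2–22.7).

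Barcodes with T cell RNA in SAA, a type that should lack class II genes, had a surface UMI in 5 of 30 thinned cells (16.7%, 5.64–34.7). Cd74 was found in 2 of them and Ciita in 0, which allows up to 11.6%. Of the 39 such barcodes before thinning, 9 were monocyte-like and 8 granulocyte-like by the rule. The parts of free RNA and of mixed barcodes in these shares were not tested. Granulocyte-like cells of SAA had a surface UMI in 29 of 413 thinned cells, and those of RC in 2 of 317 (0.631%). The intervals of the RC shares of the surface chains and Cd74 lay above those of granulocyte-like cells of the same library, in which cells were deeper before thinning. For Ciita the intervals overlapped, at 0.832–4.84% in monocyte-like cells and 0–1.16% in the 317 granulocyte-like cells.

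The 2 libraries differed in how surface UMIs were spread over cells. In RC the 10 cells with most of them held 431 of 576 (74.8%), and 316 of 342 cells held none. In SAA the 10 highest cells held 1029 of 6944 (14.8%), and the median cell held 19 UMIs. After thinning, 6 cells of RC and 33 of SAA had 20 or more surface UMIs. The highest thinned cell held 61 in RC and 73 in SAA, so that the highest RC cell lay within the range of SAA.

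**Figure D2:**
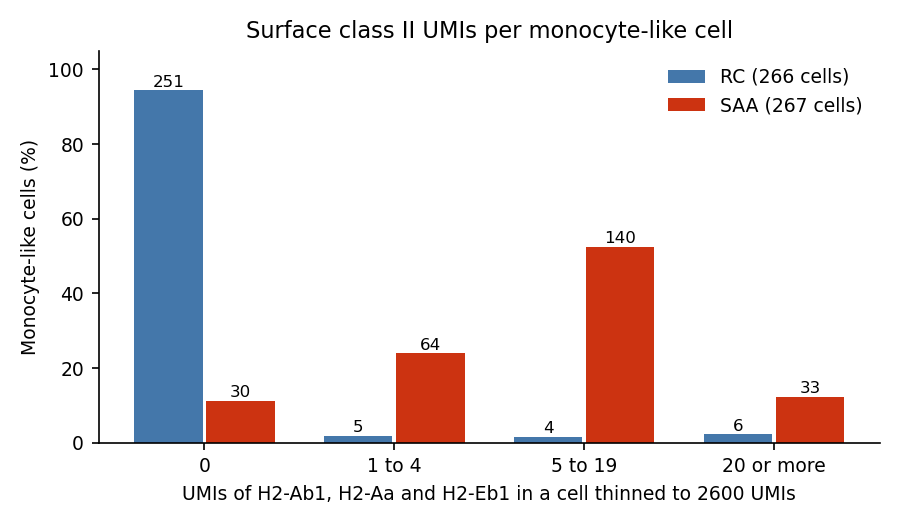
Share of monocyte-like cells (%) by the UMIs of H2-Ab1, H2-Aa and H2-Eb1 in a cell thinned to 2600 UMIs, for RC (blue, 266 cells) and SAA (red, 267 cells), with the number of cells above each bar. In RC 251 cells held none, and in SAA 140 cells held 5 to 19.

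Beside more RNA of some other marker lists, the few RC cells with surface UMIs carried RNA of some marker genes of conventional dendritic cells. Of 10 marker genes of that type, 7 were detected in the 15 thinned cells with a surface UMI, and their summed level was 886 CPM there and 58.1 CPM in the 251 cells without. Cd209a had 24 UMIs in 8 of the 15 cells against 15 UMIs in 5 of the 251, and Flt3, a growth factor receptor of dendritic cell precursors, had 7 UMIs in 5 against 3 UMIs in 3. Batf3 had 11 UMIs in 8 of the 15. Clec9a had 1 UMI in the 15 cells, and Zbtb46, Xcr1 and Cadm1 were at 0 in both. Plasmacytoid dendritic cell markers were also higher in the 15 cells, at 396 CPM against 153 CPM in the 251. So were B cell markers (380 and 136 CPM) and macrophage markers (142 and 89.35 CPM). Monocyte (19191 and 22806 CPM), granulocyte (111 and 476 CPM) and T or NK cell markers (0 and 5.36 CPM) were lower. The same 15 cells also held monocyte RNA, with Ccr2 at 2215 CPM in all 15 and F13a1 at 554 CPM in 10.

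In SAA dendritic cell markers summed to 49.8 CPM in the 237 thinned cells with a surface UMI and 28.8 CPM in the 30 without. Batf3 had 44 UMIs in 36 of the 237 cells and 0 in the 30, and Clec10a had 24 UMIs and 1 UMI. Itgax (2.29 and 16.5 CPM) and Clec9a (1.15 and 4.11 CPM) were lower in the 237. Flt3, Cd209a and Zbtb46 were at 0 in both sets. Macrophage markers were at 266 CPM in the 237 cells and 37.0 CPM in the 30. Among them C1qb, a complement component, had 133 UMIs in 33 of the 237 cells and 0 in the 30. The 30 cells without a surface UMI held more T or NK cell RNA, at 847 CPM against 13.2 CPM. B cell markers were at 160 CPM and 222 CPM, most of it Ighm (275 of 279 UMIs and 51 of 54), and Ms4a1 and Pax5 were at 0 in all monocyte-like cells of both libraries. Plasmacytoid dendritic cell markers were at 475 and 374 CPM in SAA, most of it Bst2, and Siglech and Ccr9 were at 0.

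Over the whole class, dendritic cell markers summed to 103 CPM in RC and 48.3 CPM in SAA and macrophage markers to 104 and 243 CPM. With barcodes holding 3 or more UMIs of B cell or dendritic cell markers left out of both libraries, the SAA to RC ratio was 15.6 (13.8–17.55) for the surface sum, 15.3 for H2-Ab1, 11.9 for H2-Aa, 34.8 for H2-Eb1 and 12.9 for Cd74. Thus all ratios of the surface chains and Cd74 were larger without these barcodes. Among monocyte-like cells, 16 barcodes of RC and 46 of SAA passed the B cell mark. The dendritic cell mark, which did not count Bst2, Tcf4 and Runx2, was passed by 13 and 8. Since RC cells with surface UMIs held more of these markers, the step is not a separate test of the ratios.

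The split of the class II UMIs between the roles differed between libraries. Of the 1508 UMIs of the 8 genes in monocyte-like cells of RC, 38.2% (35.7–40.7) were of surface chains, 41.8% (39.3–44.4) of Cd74, 19.03% (17.1–21.1) of DM and 0.928% (0.508–1.55) of Ciita. Of the 15292 UMIs in SAA, 45.4% (44.6–46.2) were of surface chains, 45.4% (44.6–46.2) of Cd74, 8.08% (7.65–8.52) of DM and 1.14% (0.976–1.32) of Ciita. DM thus took a smaller share in SAA, although its summed level was 2.88 times that of RC (2.53–3.29). In RC the split rested on few cells: without the 10 cells with most UMIs of the 8 genes, DM held 42.4%, Cd74 30.7% and the surface chains 25.3%.

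Within the surface chains, H2-Eb1 took 16.3% (13.4–19.6) of UMIs in RC and 24.0% (23.0–25.1) in SAA, while H2-Aa went from 48.6% to 42.9% and H2-Ab1 from 35.1% to 33.1%. Within DM, H2-DMa went from 83.3% (78.4–87.4) to 63.7% (61.0–66.4), and H2-DMb1 went from 9.76% (6.58–13.8) to 30.8% (28.2–33.4). H2-DMb2 held 6.97% (4.31–10.6) and 5.51% (4.30–6.93), with overlapping intervals. In granulocyte-like cells of RC 51 of 54 UMIs were of DM (94.4%, 84.6–98.8), while in those of SAA 16.4% (14.2–18.7) of 1119 UMIs were.

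**Figure D3:**
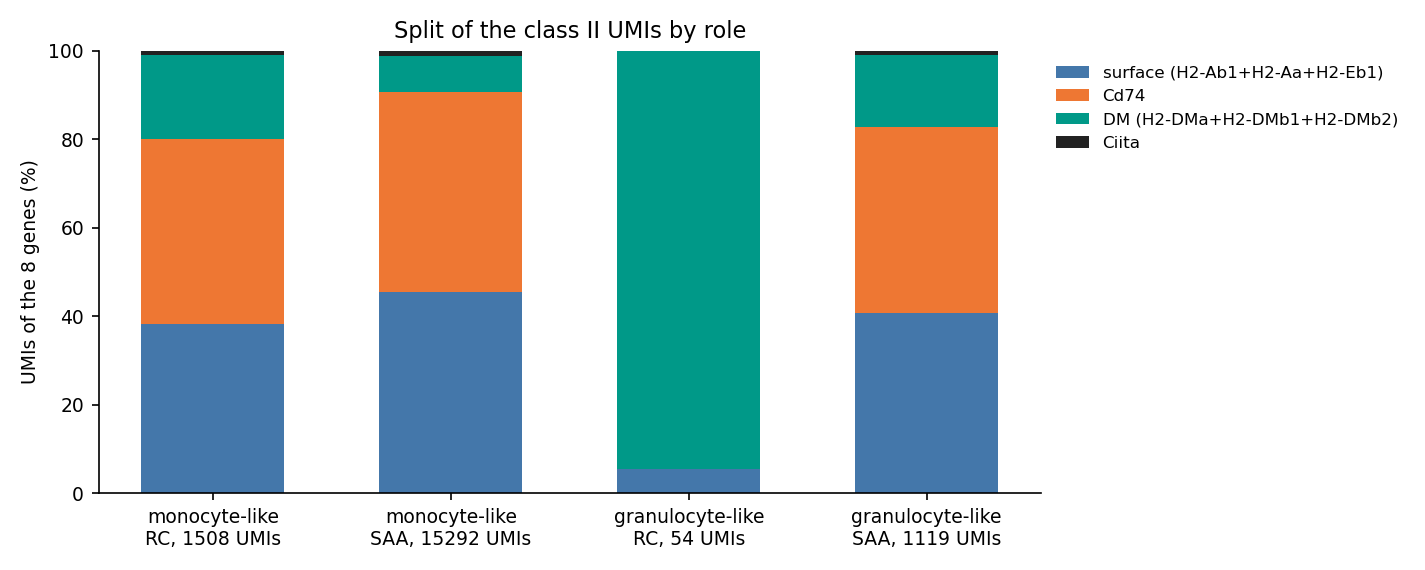
UMIs of the 8 genes by role (% of their sum) in monocyte-like and granulocyte-like cells of RC and SAA, stacked as surface chains (blue), Cd74 (orange), DM (green) and Ciita (black), with the summed UMIs under each bar. In monocyte-like cells DM takes 19.03% (RC) and 8.08% (SAA), and 94.4% of the 54 UMIs in granulocyte-like cells of RC.

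Cell by cell, DM, here a UMI of any of its 3 genes, was found without the other roles mainly in RC. Of 266 thinned monocyte-like cells of RC, 84 (31.6%, 26.0–37.5) held DM alone, 153 held none of surface chains, Cd74 and DM, 14 held Cd74 without a surface chain and 13 held Cd74 with one. Of 267 cells of SAA, 3 (1.12%) held DM alone, 12 held none, 15 held Cd74 without a surface chain and 233 (87.3%, 82.7–91.0) held both. All 3 surface chains were found together in 8 cells of RC and 166 of SAA. DM was found in 9 of 15 RC cells with a surface UMI and 89 of 251 without (35.5%, 29.5–41.7). In SAA it was found in 195 of 237 cells with (82.3%, 76.8–86.9) and 11 of 30 without (36.7%, 19.9–56.1). The share of DM in cells without a surface UMI thus had overlapping intervals in the 2 libraries. Most of it was H2-DMa, found in 80 of the 251 cells of RC and 9 of the 30 of SAA. H2-DMb1 was found in 8 (3.19%, 1.39–6.18) and 5 (16.7%, 5.64–34.7), and H2-DMb2 in 5 and 0. The 30 SAA cells also held T or NK cell RNA at 847 CPM, as given above.

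Over these cells, Pearson's r between log2(UMIs + 1) of Cd74 and of the surface sum was 0.91 in RC (266 cells) and 0.81 in SAA (267 cells). The points are cells of 1 library at 1 depth. For H2-DMa r was 0.23 and 0.37, for H2-DMb1 0.25 and 0.33, for H2-DMb2 0.31 and 0.11 and for Ciita 0.40 and 0.30. In RC these values rest on 15 cells with a surface UMI. Between H2-Aa and H2-Ab1, which encode partner chains, r was 0.96 in RC and 0.72 in SAA.

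Ciita UMIs were found in cells with class II transcripts. Without thinning, 10 of the 11 RC cells with Ciita also held a surface UMI, while 1 of the 316 cells without a surface UMI held Ciita. After thinning, 6 RC cells held Ciita, of which 4 had a surface UMI (66.7%, 22.3–95.7) and 5 had Cd74. In SAA 47 thinned cells held Ciita. Cd74 was found in all 47, H2-Aa in 45 (95.7%, 85.5–99.5), H2-Ab1 in 41, H2-Eb1 in 41, H2-DMa in 34, H2-DMb1 in 29 and H2-DMb2 in 7. None of the 266 and 267 thinned cells held Ciita without either a surface UMI or Cd74.

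The reverse did not hold at this depth. Of the 220 SAA cells with no Ciita UMI, 192 (87.3%, 82.1–91.4) had a surface UMI and 201 (91.4%) had Cd74. Cells with a Ciita UMI held a mean of 16.6 surface UMIs (median 15, range 0 to 56) against 8.71 (median 6, range 0 to 73) in those without, a ratio of 1.91 (1.76–2.08), so that the groups overlapped widely. The ratio was 1.68 (1.54–1.83) for Cd74, 2.18 (1.84–2.58) for H2-Eb1, and 1.19 (0.881–1.59) for H2-DMa, whose interval included 1. These intervals treat the UMIs of a cell as independent, so that the spread between cells is not in them. In RC, cells with Ciita held a mean of 10.5 surface UMIs (range 0 to 28) and those without 0.704 (range 0 to 61), with 6 cells in the first group. Before thinning, the median total was 3499 UMIs with Ciita and 3760 without in RC, and 5983 and 6498 in SAA. Grouped by Ciita without thinning, the SAA cells with Ciita were deeper (medians 7208 and 5499.5 UMIs), and the ratio of mean surface UMIs was 2.31 (2.20–2.43).

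The share of SAA cells with a Ciita UMI was 6.67% (0.818–22.1) of 30 cells with no surface UMI, 6.25% (1.73–15.2) of 64 cells with 1 to 4, and 12.1% (5.38–22.5) of 66 cells with 5 to 9. It was 27.0% (17.4–38.6) of 74 cells with 10 to 19 and 39.4% (22.9–57.9) of 33 cells with 20 or more. The shares at 0 and at 1 to 4 surface UMIs do not differ beyond their intervals, and the intervals at 10 to 19 and at 20 or more lay above that at 1 to 4. Thinned to 1300 UMIs this separation was lost, with 6.36% (2.60–12.7) of 110 cells at 1 to 4, 13.5% (4.54–28.8) of 37 at 10 to 19 and 22.2% (2.81–60.0) of 9 at 20 or more. In RC the 4 bins with a surface UMI held 5, 1, 3 and 6 cells, too few for an order. In granulocyte-like cells of SAA, 9 of the 10 cells with Ciita (no thinning) also had a surface UMI, with a mean of 22.2 against 0.567 in the 411 cells without.

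**Figure D4:**
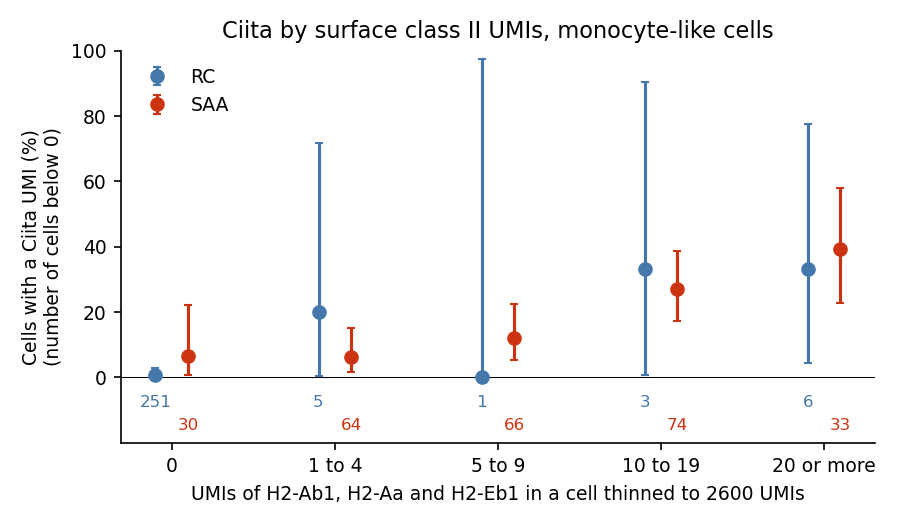
Share of monocyte-like cells (%) with a Ciita UMI by the UMIs of H2-Ab1, H2-Aa and H2-Eb1 in the same cell, both after thinning to 2600 UMIs, for RC (blue) and SAA (red) with exact Clopper-Pearson 95% intervals and the number of cells below 0. In SAA the share is 6.25% at 1 to 4 surface UMIs and 39.4% at 20 or more; the RC intervals beyond the first bin rest on 1 to 6 cells.

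Levels also differed with the cell cycle. Thinned monocyte-like cells were called cycling at 3 or more UMIs over 10 cell cycle genes, a cut on a per-cell sum near which 5 cells of RC and 24 of SAA lay. In SAA the surface chains were at 2173 CPM (2092–2256) in 137 cycling cells and 5520 CPM (5351–5694) in 130 non-cycling cells, and in RC at 109 CPM (83.7–140.5) in 90 and 471 CPM (418–528) in 176. Cd74 was at 2550 and 4960 CPM in SAA and at 152 and 562 CPM in RC. Both levels were thus lower in cycling cells, but in RC they rest on few cells: a surface UMI was found in 4 of 90 cycling cells (4.44%) and 11 of 176 non-cycling cells (6.25%), and the intervals treat the UMIs of a cell as independent. Thinned shares of SAA cells with a surface UMI were 80.3% (cycling) and 97.7% (non-cycling), the cycling cells being deeper before thinning (medians 8651 and 4995 UMIs).

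DM levels lay closer together. H2-DMa was at 345 CPM (314–379) in cycling and 472 CPM (424–525) in non-cycling cells of SAA, and at 127 CPM (99.4–161) and 178 CPM (146–214) in those of RC, where the intervals overlapped. Ciita was at 58.7 CPM (46.1–73.7) and 132 CPM (107–161) in SAA, and had 2 and 6 UMIs in RC. The SAA to RC ratio of the surface sum was 19.9 (15.4–26.0) in cycling and 11.7 (10.4–13.2) in non-cycling cells. In RC these rest on separate cells, of which 4 and 11 held a surface UMI after thinning. Before thinning, these RC sets held 61 and 294 of the 576 surface UMIs of the class. Both ratios lay above the 8.07 of the whole class, which also counts 76 shallower cells of RC and 18 of SAA. For H2-DMa the ratio was 2.71 (2.11–3.54) in cycling and 2.66 (2.14–3.32) in non-cycling cells. All 8 genes had a ratio above 1 in both sets of cells, with an interval including 1 for H2-DMb2 in cycling cells (1.46, 0.703–3.32).

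**Figure D5:**
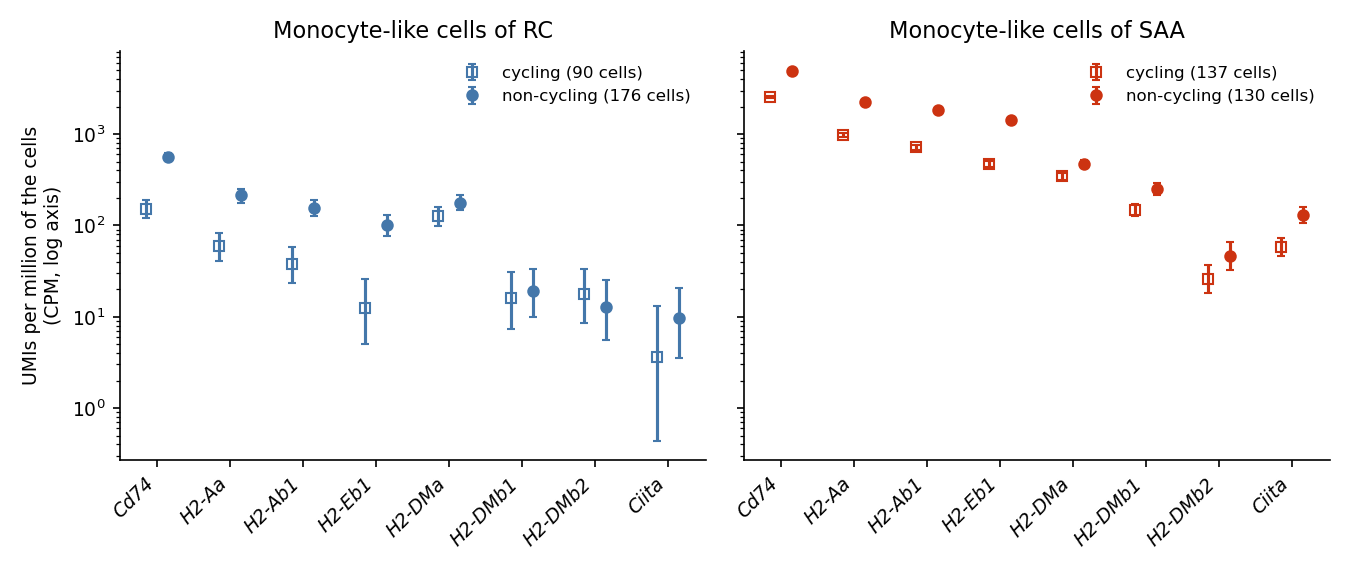
Level of each of the 8 genes (CPM, log axis) in cycling (open squares) and non-cycling (filled circles) monocyte-like cells of RC (left) and SAA (right) with exact Poisson 95% intervals. In SAA the surface chains together are at 2173 CPM in cycling and 5520 CPM in non-cycling cells.

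Other genes of the pathway were counted from lists. On the route from interferon-gamma to Ciita, Irf1, a transcription factor that acts at a Ciita promoter, went from 52 to 501 UMIs in monocyte-like cells (6.45, 4.84–8.76). Named after their values were seen, Jak2 had a ratio of 2.08 (1.62–2.71) and Socs1, a feedback inhibitor, went from 4 to 457 UMIs (76.5, 29.7–282). Ifngr1, a chain of the interferon-gamma receptor, was lower, from 436 to 251 UMIs (0.386, 0.329–0.451), and Jak1 had a ratio of 0.773 (0.643–0.930).

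Of the 9 factors that act at class II promoters none was past either bound in monocyte-like cells. Their median log2 ratio was -0.23 against -0.06 over all genes. Spi1, the myeloid factor PU.1, had a ratio of 0.948 (0.837–1.08), Irf8 0.853 (0.741–0.983), Creb1 0.704 (0.529–0.936) and Nfya, a subunit of the Y box factor NF-Y, 0.745 (0.545–1.02). The subunits of the X box factor RFX were sparse, with 9 and 15 UMIs of Rfx5, 16 and 13 of Rfxank and 44 and 41 of Rfxap (0.624, 0.398–0.977). The interval of Ciita, with a ratio of 8.32, lay above those of Spi1, Irf8, Creb1 and Nfya. In granulocyte-like cells 2 of the 9 factors had a ratio of at most 0.5. They were Rfxap (0.456, 0.298–0.689) and Rfxank (0.455, 0.217–0.923), named after their values were seen.

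Of 6 endosomal genes detected none was past either bound in monocyte-like cells, with a median of 0.34. Ctss, the protease that degrades the invariant chain, went from 834 to 1053 CPM (1.26, 1.17–1.36), Ctsz had a ratio of 1.69 (1.51–1.91), Ctsd 1.92 (1.62–2.28) and Ctsb 0.971 (0.880–1.07). Of the genes for co-stimulation and class II turnover, 4 had at least 20 UMIs and 1, Cd40, a ratio of at least 2 (2.03, 1.30–3.27), with a median of 0.08. March1, a ubiquitin ligase that removes class II molecules from the surface, went from 130 to 103 UMIs (0.531, 0.406–0.692). Cd86 had 18 and 16 UMIs (0.595, 0.284–1.24), and March8 10 and 28 (1.88, 0.884–4.33).

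Cd74 is also a receptor for the cytokine MIF. In the MIF list Mif went from 137 to 730 UMIs (3.57, 2.97–4.31) and Cxcr4 from 289 to 210 (0.487, 0.405–0.583), Cd44 had a ratio of 0.901 (0.787–1.03), and Cxcr2 had 2 and 7 UMIs. The median over the 3 with at least 20 UMIs was -0.15. The other class II genes were near 0: H2-Oa and H2-Ob, which encode the inhibitor of DM, had 2 and 3 UMIs in RC and 9 and 4 in SAA, and H2-Eb2 had 0 in both. In granulocyte-like cells Irf1 had a ratio of 7.66 (5.46–11.1), Socs1 one of 17.95 (10.3–34.1) and Ifngr1 one of 0.490 (0.418–0.573).

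The genes whose pattern over the 267 thinned SAA cells was most like the surface sum were ranked by Pearson's r among 3424 genes with a UMI in at least 10% of the cells, the 8 genes left out. The 10 highest were Cxcl9 (0.54), Ly6a (0.53), Ctss (0.44), Ly6i (0.42), Pla2g7 (0.41), Gngt2 (0.41), Fth1 (0.40), Plbd1 (0.39), Ftl1 (0.39) and Slamf8 (0.36). All lay below the r of Cd74, and Ctss is the one of them that was on the lists above. In RC the r of these 10 genes ran from -0.13 (Ftl1) to 0.21 (Plbd1). The 5 lowest in SAA were Hmgb2 (-0.52), Stmn1 (-0.44), Pclaf (-0.41), Crip1 (-0.39) and Ptma (-0.38), of which Pclaf was among the cell cycle genes used above.

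In SAA, 101 of 103 cells with a Cxcl9 UMI had a surface UMI (98.1%, 93.2–99.8), against 136 of 164 without (82.9%, 76.3–88.3). The mean was 16.1 surface UMIs in the cells with Cxcl9 and 6.35 in those without. In RC, 9 of 82 cells with a Cx3cr1 UMI had a surface UMI (11.0%, 5.14–19.8) against 6 of 184 without (3.26%, 1.21–6.96), intervals that overlapped.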

How the data were processed

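Sorted bone marrow cells of RC and SAA mice were analysed as 2 libraries, each a pool of 3 mice, grouped by their labels. The deposited tables hold raw UMI counts for every gene in every called barcode. The authors obtained them from Chromium 5′ libraries with Cell Ranger 6.0.1 and mm10, and did not normalize them. That reference carries C57BL/6 alleles, and how well reads of BALB/c alleles map was not tested. No normalized values were used here.

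The 8 genes and the lists were chosen with earlier results of these data known. Barcodes with at least 1000 genes were classed and summed as described, and scaled to CPM. Where 1 library had 0 UMIs of a gene, 3 UMIs stood in for it as a floor. Thinning used 1 draw with seed 42. Named genes were the 8, the 4 of each pathway list with most UMIs in monocyte-like cells, the 10 highest and 5 lowest by r, and of each marker list its summed level and genes with 20 UMIs or more. Marker genes with fewer UMIs were named after their values were seen, and not every marker with 20 or more is named. With 1 library per condition, depth (1358365 to 3315632 UMIs per class) bounds counting error only, and no p-value was computed.

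Alternatives changed the cell filter (none, 1500 genes, at most 25% mitochondrial UMIs), the class rule, barcodes with T, B or dendritic cell RNA, doublets (Scrublet in scanpy 1.11.5, expected rate 1%, kept in the values reported), the scaling (TMM of edgeR 4.0.16, median of ratios), cell weights, thinning depth and UMI minimum. Intervals were tested on simulated data. Python 3.11.15, numpy 2.4.6, scipy 1.17.1, pandas 2.3.3 and R 4.3.3 were used. Gene positions are from GENCODE, with 30934 of 31053 genes matched by identifier. Values of some genes on the lists are not reported here.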

Additional observations from a re-analysis of the deposited data

Results flagged for a closer look

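Barcodes with under 1000 genes, which the main comparisons leave out, also carried surface chain and Cd74 transcripts above the level in the control library. The surface chains were at 1662 CPM (1455–1891) in 96 such barcodes of SAA, with 231 UMIs in 31 of them, and at 634.6 CPM (534–748) in 136 of RC, with 141 UMIs in 10. Cd74 was at 964.2 CPM (808–1142) in SAA and 580.6 CPM (485–690) in RC. Ciita had 10 UMIs in 8 barcodes of SAA and 5 in 4 of RC, a ratio of 3.20 (0.996–11.9). The ratio was 1.23 (0.680–2.18) for H2-DMa and 1.52 (0.948–2.43) for the DM sum. These 3 intervals included 1. H2-DMb1 had a ratio of 3.00 (1.19–8.16), and H2-DMb2 had 2 UMIs in RC and 0 in SAA. These barcodes were shallow, with medians of 1316 UMIs in SAA and 1639.5 in RC, and 3 of those of SAA had over 25% mitochondrial UMIs. The signal was flagged because it lies in barcodes that enter the ratios above only where no filter on genes was applied.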

How the results depend on the processing

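No paired analysis was possible because each condition is 1 library. For the same reason no replicate could be left out. In monocyte-like cells the SAA to RC ratio of each gene and sum stayed above 1 in all 100 alternatives (2.07 to 34.8), and in granulocyte-like cells in all 94 (1.69 to 120). Of the main results 81 alternative values stayed within their interval or within 1.5 times the count, and 27 moved. The surface ratio was 7.26 with no filter on genes, 11.2 at 1500 genes, 10.1 in the clear class (larger sum at least 4 times the other and at least 5 UMIs), 15.6 without B or dendritic cell RNA and 7.12 with cells weighted equally. The Cd74 ratio was 9.37, 8.76, 12.9 and 6.24 under the last 4 of these. The DM ratio was 3.40 at 1500 genes and 3.35 without B or dendritic cell RNA. In granulocyte-like cells the Cd74 ratio was 29.6 with no filter, and at least 52.0 in the clear class, 57.4 without B or dendritic cell RNA and 83.8 without doublets. Thinned to 1300 UMIs, 86.0% of monocyte-like cells of SAA had Cd74 and 82.8% a surface UMI, and the ratio of mean surface UMIs with and without Ciita was 25.7 in RC and 1.75 in SAA (2.31 in SAA with no thinning). Without the 10 highest cells the RC split was 25.3% surface, 30.7% Cd74 and 42.4% DM. At a minimum of 100 UMIs, which tests fewer genes, 293 genes were at 2 or more and 247 at 0.5 or less in monocyte-like cells, and 259 and 98 in granulocyte-like cells. Apart from that minimum and the shallower thinning, the cause of each move was not tested. Depth limits Ciita most, with 14 UMIs in RC.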
